A study of Homo sapiens with 4 samples.

Results

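The RNAs described are the mRNAs of 10 human chaperone genes of the HSP70 and HSP110 families: HSPA1A, HSPA1B, HSPA4, HSPA4L, HSPA5, HSPA8, HSPA9, HSPA13, HSPH1 and HYOU1. They were chosen by name, with earlier results of these data known. In a table of 63677 genes they are the rows whose Ensembl identifiers carry these symbols in GENCODE v44. All 10 were found and passed the filter on low counts that left 14645 genes tested. The libraries came from native RNA immunoprecipitation sequencing (RIP-seq) of nuclei of HCT116, an established human colorectal carcinoma line, in which RNA that stays with a precipitated protein is sequenced without prior crosslinking. All cells had been transfected for 48 h with pcDNA3.1-ORC1-3xFLAG, a plasmid that drives FLAG-tagged ORC1, a subunit of the origin recognition complex, from a viral promoter. The 2 groups were the RNA recovered with an anti-FLAG antibody (ORC1-FLAG IP, 2 libraries) and RNA of the same lysates with no antibody (Input, 2 libraries), numbered replicate 1 and 2 in each. The comparison asked which RNAs were recovered with ORC1-FLAG beyond their level in the lysate. Every library came from transfected cells, and none of these 4 was a precipitation with a control antibody. From these libraries alone, RNA that stays on beads or antibody cannot be told apart from RNA held by ORC1. The study reports that control IgG gave no detectable RNA beside its RIP of endogenous ORC1. In its separate UV-crosslinked experiments, anti-FLAG precipitation from untransfected cells recovered negligible RNA. The study calls the pairs duplicate experiments and the labels name no cultures, so p-values measure the spread between these libraries only.

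HSP70 proteins bind short hydrophobic stretches of unfolded polypeptides and release them in a cycle driven by ATP. J-domain proteins stimulate the ATP hydrolysis, and nucleotide exchange factors remove the ADP. HSP110 proteins are large relatives of HSP70 that act mainly as its nucleotide exchange factors. Human cells hold a constitutive cytosolic form (HSPA8), stress-inducible cytosolic forms (HSPA1A and HSPA1B), a form of the endoplasmic reticulum, ER (HSPA5), and a mitochondrial form (HSPA9). All of these mRNAs are encoded in the nucleus and transcribed there, so their nascent and mature RNA can be present in a nuclear lysate whatever compartment the protein works in.

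Of the 10 mRNAs, 9 were higher in both ORC1-FLAG IP libraries than in both Input libraries, and HSPA13 was lower in both, against 33.2% and 31.9% of all tested genes in these directions. A gene was called enriched or depleted where edgeR's quasi-likelihood test gave a Benjamini-Hochberg adjusted p below 0.05 over all tested genes and the log2 fold change was past 1. By that rule HSPA5, HSPA8, HSPA9, HSPH1 and HYOU1 were enriched, which is 5 of the 10 members against 10.5% of tested genes, and 0 members were depleted against 8.30%. The labels give an IP and an Input library of 1 RIP replicate the same number. With a replicate block HSPA1A, HSPA1B and HSPA4 were also enriched, 8 members in all, against 13.4% of tested genes in that fit. The median log2 fold change was 1.53 over the 10 members and 0.01 over the tested genes. Fits that leave out 1 library had no replicate block, so the partner of that library stayed in the fit without its match. Without IP replicate 1 HSPA5 and HSPA9 were enriched, 2 members in all, against 8.04% of the genes tested in that fit. Without Input replicate 2 HSPA1A, HSPA5, HSPA9 and HSPH1 were, 4 in all, against 9.23%. Without Input replicate 1 there were 9 enriched members against 11.9%, and without IP replicate 2 there were 8 against 12.0%.

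The study described ORC1-bound RNAs as rich in GAA, so the letters GAA repeated in these transcripts are shown first. From crosslink positions and gel shift assays, it reports that ORC1 does not bind RNA through this repeat. Its motif came from a motif search on the largest transcripts, a measure unlike the exact letters counted here. GAAGAA (sense strand only, counted on each gene's canonical GENCODE transcript) was present in 10 of 10 members, but also in 79.6% of the 14265 tested genes that have such a transcript. GAAGAAGAA, of which GAAGAA is a part, was present in 1 of 10, HSPA5, and in 13.8% of those genes. The 10 transcripts held 45 runs of GAAGAA or longer, 34 in coding sequence, of which 23 lay in frame so that each GAA was a glutamate codon, and 11 in the 3′ UTR. HSPH1 held 10 runs, HSPA5 held 9, HSPA4L 7, HSPA4 6, HYOU1 5, HSPA9 3, HSPA8 2, and HSPA1A, HSPA1B and HSPA13 1 each. The median was 4 per member transcript and 2 over those tested genes, whose transcripts differ in length. Runs that distinguish members, or that relatives share, are given below on GRCh38, 5′ to 3′ on the strand of the mRNA, with the GAA run in capitals and 6 bases on each side.
HSPA5, 3′ UTR, chr9:125236385-125236405, minus strand: gggggaGAAGAAGAAttggcc
HSPA1A, coding, chr6:31817451-31817468, plus strand: ggacaaGAAGAAggtgct
HSPA1B, coding, chr6:31829645-31829662, plus strand: ggacaaGAAGAAggttct
HSPA4, coding, chr5:133101813-133101830, plus strand: ttatttGAAGAActaggg
HSPH1, coding, chr13:31138829-31138846, minus strand: atgtttGAAGAActagga
HSPA8, coding, chr11:123059675-123059692, minus strand: cgatttGAAGAActgaat
HSPA13, 3′ UTR, chr21:14372830-14372847, minus strand: gcatttGAAGAAtgtgtt
The HSPA5 window is the only run of 3 GAA in a canonical transcript of the set. The HSPA1A and HSPA1B windows differed in 1 of 18 bases, and the HSPA4 and HSPH1 windows in 3 of 18. All windows were chosen to hold GAAGAA, so those letters match by selection. The HSPH1 window was the one with the fewest differences from that of HSPA4. HSPA13, the member with the lowest IP/Input ratio, held its only run outside the coding sequence. A match of letters is a description of the transcript and shows no binding site.

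HSPA8, the constitutive cytosolic HSP70 also known as HSC70, lies on GRCh38 at chr11:123057489-123063230 on the minus strand and was the most abundant member in every library. Its levels, as counts relative to library size after edgeR's TMM scaling (CPM with TMM factors, written scaled CPM), were 18326 in replicate 1 and 7746 in replicate 2 for IP, and 4590 and 2578 for Input. Pairs of values are given for replicate 1 and then replicate 2 throughout. Both IP libraries were above both Inputs, and replicate 1 was the higher of each pair. The IP/Input ratio on the log2 scale was 2.00 in replicate 1 and 1.59 in replicate 2, and the fitted log2 fold change was 1.86 ± 0.52 (SE, n = 2 and 2 libraries, edgeR adjusted p = 0.0422), the highest of the 10 members in this fit. With the replicate block HSPA8 was at 1.79 and HSPH1 higher, at 1.85. It was 1.15 without IP replicate 1 (edgeR adjusted p = 0.110) and 1.35 without Input replicate 2 (edgeR adjusted p = 0.0621), and neither value passed the test. These levels rest on 381588 and 136155 reads for IP and on 80148 and 30123 for Input. HSPA8 alone took 1.39% and 0.671% of all IP counts, where it ranked 3 and 6 among all genes, and 0.546% and 0.327% of all Input counts. It made up between 47.8% and 65.8% of the members' summed level in each library.

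HSPA1A and HSPA1B are neighbouring genes without introns on chromosome 6 that encode nearly the same heat-inducible HSP70. HSPA1B (chr6:31827738-31830254, plus strand) was measured at 363 and 122 scaled CPM in IP against 114 and 55.8 in Input. HSPA1A (chr6:31815543-31817946, plus strand) was measured at 21.7 and 7.96 in IP against 6.07 and 3.34 in Input. For both genes each IP library was above each Input, and for HSPA1B the margin between IP replicate 2 and Input replicate 1 was small. The log2 ratios were 1.66 and 1.12 for HSPA1B and 1.76 and 1.14 for HSPA1A. The fitted log2 fold change of 1.64 ± 0.52 for HSPA1A did not pass the test (edgeR adjusted p = 0.0608). That of 1.51 ± 0.55 for HSPA1B did not pass it either (edgeR adjusted p = 0.0915). With the replicate block both passed, at 1.60 ± 0.23 (edgeR adjusted p = 2.17e-05) and 1.40 ± 0.18 (edgeR adjusted p = 1.02e-05). Without IP replicate 1 the value was 0.79 for HSPA1A (edgeR adjusted p = 0.353) and 0.55 for HSPA1B (edgeR adjusted p = 0.448). Without Input replicate 2 it was 1.13 for HSPA1A, which passed (edgeR adjusted p = 0.0152), and 0.92 for HSPA1B (edgeR adjusted p = 0.0546). Without Input replicate 1 or IP replicate 2 both genes were enriched, at 2.14 to 2.24.

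The division of reads between this pair is uncertain. Of the 1923 coding bases, 99.8% were identical between HSPA1A and HSPA1B, with 4 mismatches, and 75.1% of the 50-base windows of the HSPA1A transcript occurred also in HSPA1B. Only 585 windows of HSPA1A and 652 of HSPA1B were found in no other transcript. The files listed 15.3 to 18.8 times as many reads for HSPA1B as for HSPA1A in each library, and how reads with several alignments were treated is not given in the sources used here. With the counts of both genes added before the fit, the log2 fold change was 1.52 ± 0.55 (edgeR adjusted p = 0.089), so the sum did not pass the test either.

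**Figure D1:**
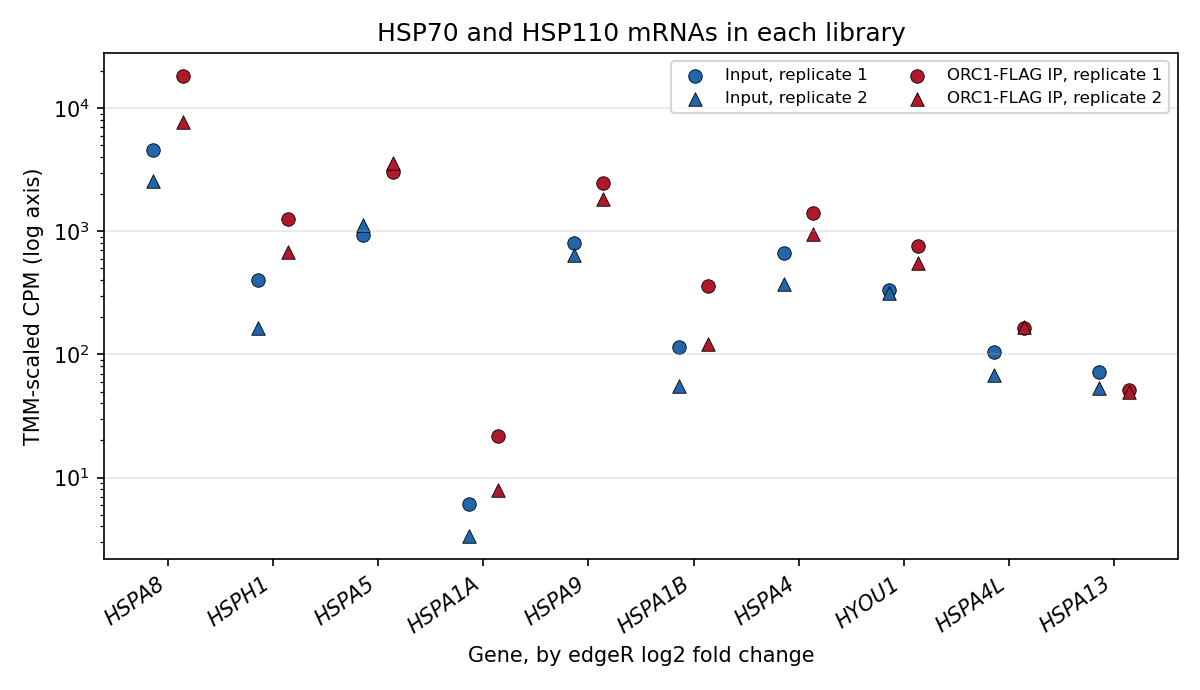
Scaled CPM (log axis) of the 10 members in each of the 4 libraries, with 1 point per library and ORC1-FLAG IP and Input set apart by colour. For 9 members both IP points lie above both Input points, and for HSPA13 both lie below. HSPA8 is the highest member in every library, at up to 18326 scaled CPM, and HSPA1A the lowest.

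The HSP110 group consists of HSPH1, HSPA4 and HSPA4L, cytosolic proteins that serve as exchange factors for HSP70. HSPH1 (HSP105, chr13:31134973-31162388, minus strand) was measured at 1261 and 683 scaled CPM in IP against 402 and 166 in Input. The IP levels lay above the Input levels in both replicates, and the spread within each group was wide. The log2 ratios were 1.65 and 2.04, and HSPH1 was enriched with a log2 fold change of 1.78 ± 0.49 (edgeR adjusted p = 0.0425). Without IP replicate 1 it was 1.30 (edgeR adjusted p = 0.0671), and without Input replicate 2 it was 1.12 and still enriched.

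HSPA4 (APG-2, chr5:133052013-133106449, plus strand) was measured at 1412 and 951 scaled CPM in IP against 666 and 374 in Input. Its groups did not overlap, and its log2 ratios of 1.08 and 1.35 were both lower than those of HSPH1. The log2 fold change of 1.18 ± 0.37 missed the threshold (edgeR adjusted p = 0.061) and passed with the replicate block at 1.22 ± 0.18 (edgeR adjusted p = 3.70e-05). It was 0.91 without IP replicate 1 (edgeR adjusted p = 0.158) and 0.67 without Input replicate 2 (edgeR adjusted p = 0.272), and HSPA4 was enriched without Input replicate 1, at 1.70, and without IP replicate 2, at 1.49. HSPA4L (APG-1, chr4:127781821-127840733, plus strand) was measured at 163 and 168 in IP against 105 and 68.2 in Input. Its IP values were nearly equal while the Inputs differed, so that the log2 ratio was 0.63 in replicate 1 and 1.30 in replicate 2. The log2 fold change was 0.93 ± 0.28 (edgeR adjusted p = 0.0517), and with the block it was 0.97 ± 0.19 (edgeR adjusted p = 0.000531), under the minimum fold in both fits. Without Input replicate 2 it was 0.51 (edgeR adjusted p = 0.318), and without Input replicate 1 HSPA4L was enriched at 1.32 (edgeR adjusted p = 0.00475).

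The 3 HSP110 mRNAs are related in sequence, with 66.2% identical aligned coding bases between HSPA4 and HSPA4L, 65.5% between HSPA4 and HSPH1 and 64.3% between HSPA4L and HSPH1. HSPA4 and HSPH1 shared no 50-base window with any other transcript, and HSPA4L shared 7.58% of its windows. The fitted values ran from 1.78 for HSPH1 to 0.93 for HSPA4L, and a difference between 2 members was not tested. Of the 3, HSPH1 alone was enriched in the fit with no block.

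Of the ER members, HSPA5 (BiP, also GRP78) is the HSP70 of the ER lumen and a marker of the unfolded protein response. HSPA5 (chr9:125234853-125241382, minus strand) was measured at 3025 and 3616 scaled CPM in IP against 934 and 1136 in Input. Replicate 2 was the higher of both pairs, unlike most members, and the ratios were close to each other, at 1.69 and 1.67 on the log2 scale. HSPA5 was enriched with a log2 fold change of 1.68 ± 0.30 (edgeR adjusted p = 0.0141), the smallest adjusted p among the members in this fit. With the replicate block that of HSPH1 was smaller (edgeR adjusted p = 9.63e-07, against 2.91e-06 for HSPA5). HSPA5 is the single member that was called under all 14 alternative settings, with log2 fold changes from 1.08 to 1.85.

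HYOU1 (GRP170, chr11:119044188-119057227, minus strand) is the large HSP110-type relative of the ER and an exchange factor for HSPA5. Its levels were 762 and 551 scaled CPM in IP against 331 and 314 in Input, with no overlap between the groups. The log2 ratios were 1.20 and 0.81, and the log2 fold change of 1.03 ± 0.28 was just past the minimum of 1 (edgeR adjusted p = 0.0389). It was 0.82 without IP replicate 1 (edgeR adjusted p = 0.177) and 0.83 without Input replicate 2 (edgeR adjusted p = 0.128). HYOU1 has an opposite-strand lncRNA gene (ENSG00000255114) that overlaps 9.77% of its exonic bases and was listed at 0 counts in every library.

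HSPA13 (STCH, chr21:14371115-14383484, minus strand) is an ER-associated HSP70 relative that lacks the peptide-binding domain. It was measured at 51.6 and 49.7 scaled CPM in IP against 72.3 and 53.0 in Input. Both IP values were below both Inputs, though in replicate 2 by a small margin. The log2 ratios were -0.48 and -0.09, and the log2 fold change of -0.31 ± 0.24 did not pass the test (edgeR adjusted p = 0.388, and 0.14 with the replicate block). The fitted value was below 0 under each of the 14 alternatives and past neither fold minimum.

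HSPA9 (mortalin, chr5:138553756-138575675, minus strand) is the mitochondrial HSP70, which pulls proteins through the inner membrane and folds them in the matrix. Its levels were 2460 and 1821 scaled CPM in IP against 811 and 647 in Input. The groups were well apart, and the log2 ratios of 1.60 and 1.49 were close to each other. HSPA9 was enriched with a log2 fold change of 1.55 ± 0.31 (edgeR adjusted p = 0.0179), and it was called under 12 of the 14 alternatives. The members of the 3 compartments thus each included at least 1 enriched mRNA, HSPA8 and HSPH1 for the cytosol, HSPA5 and HYOU1 for the ER and HSPA9 for mitochondria.

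**Figure D2:**
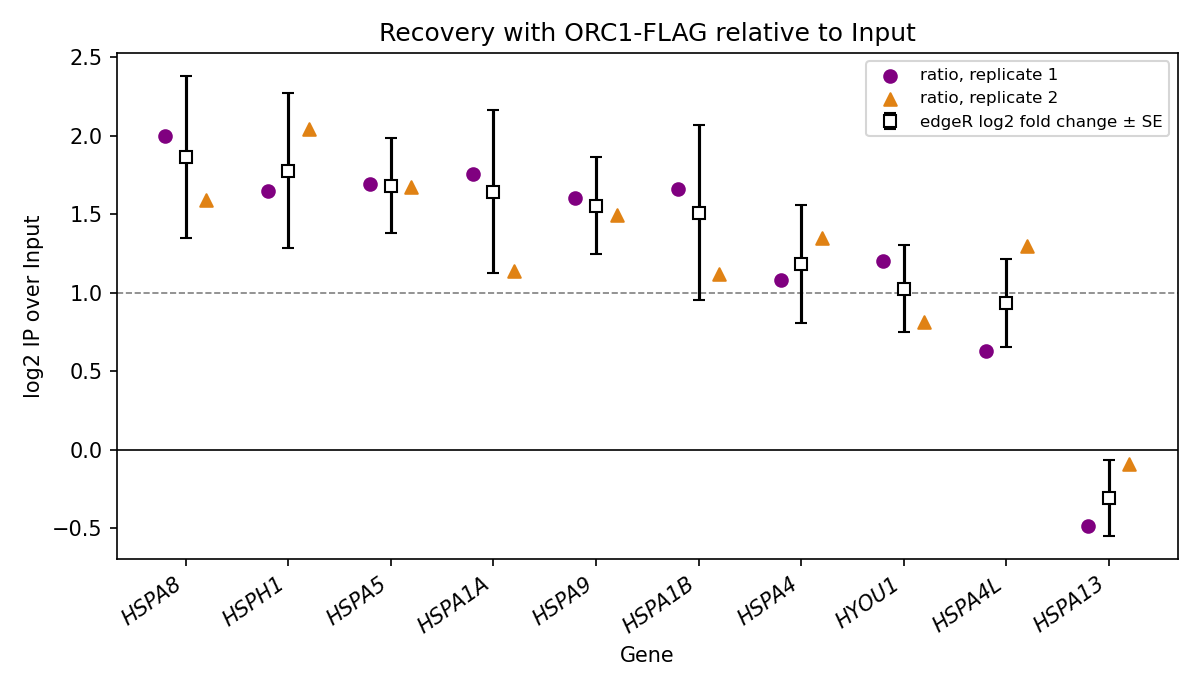
Log2 IP/Input ratio of each member in replicate 1 and replicate 2 (points) with the edgeR log2 fold change and its SE. The members run from 1.86 for HSPA8 down to -0.31 for HSPA13, and 7 members have ratios above 1 in both replicates.

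In both replicates the log2 ratio was above 1 for 7 of the 10 members, against 8.95% of tested genes. The median ratio of the members was 3.09-fold in replicate 1 and 2.51-fold in replicate 2. All members together took 2.11% and 1.36% of all IP counts and 0.956% and 0.684% of all Input counts. The size of the fold rests on the scaling of the libraries. With library size as the only scaling the log2 fold changes of all tested genes moved by a median of -0.60, and HSPA5 alone stayed enriched, 1 of 10 members against 2.59% of tested genes. Under that scaling the median log2 ratio of the members was 0.97 in replicate 1 and 0.77 in replicate 2. With RLE size factors HSPA5 and HSPA9 were enriched, 2 members against 9.75% of tested genes. With the replicate block and library size only, 3 members were enriched against 3.45% of tested genes. DESeq2, the tool of the study, called 8 enriched against 11.0%, and limma voom called 5 against 10.5%, both by adjusted p. The study's own RIP threshold was a log2 fold change above 1 and p below 0.05, with no adjustment stated. In these 4 fits 0 members were depleted, against 22.2% of tested genes with library size only, 31.4% with the block as well, 7.66% with DESeq2 and 7.78% with limma voom. The 9 members above 0 and HSPA13 below 0 kept their signs under each scaling tried.

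Per kilobase of the canonical transcript, the members ranked by mean IP level as HSPA8 at 5758 scaled CPM per kilobase, HSPA5 at 847, HSPA9 at 486, HSPA4 at 248, HSPH1 at 185, HYOU1 at 143, HSPA1B at 96.3, HSPA4L at 15.6, HSPA13 at 12.8 and HSPA1A at 6.18. The IP values overlapped between the neighbours HSPA4 and HSPH1, HSPH1 and HYOU1, and HYOU1 and HSPA1B, whose order is therefore not separated by the spread of the libraries. Mean Input levels per kilobase ran from 1583 for HSPA8, 264 for HSPA5, 165 for HSPA9 and 109 for HSPA4 to 70.2 for HYOU1, 54.1 for HSPH1, 33.8 for HSPA1B, 15.9 for HSPA13, 8.17 for HSPA4L and 1.96 for HSPA1A. HYOU1 overlapped HSPH1, and HSPH1 overlapped HSPA1B. The 4 leading mRNAs kept their order in both groups, while HSPH1 stood above HYOU1 in IP and below it in Input, and HSPA4L above HSPA13 in IP and below it in Input.

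The 2 replicates differed for many members in the level itself, in Input and IP alike. Among the Inputs, HSPH1 was 2.43-fold higher in replicate 1 than in replicate 2, a difference at percentile 99.1 of all tested genes. HSPA1B was 2.05-fold higher in Input replicate 1 and 2.98-fold higher in IP replicate 1, the latter at percentile 99.9. HSPA8 was 1.78-fold higher in Input replicate 1 and 2.37-fold higher in IP replicate 1, the latter at percentile 99.8. In total 9 of 10 members were higher in Input replicate 1 than in Input replicate 2, and 8 of 10 in IP. The exception in both was HSPA5, at 0.823 in Input and 0.837 in IP, and HSPA4L was at 0.968 in IP.

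The median log2 difference of replicate 1 from replicate 2 was 0.70 in Input and 0.52 in IP over the members, and -0.01 and 0.03 over all tested genes. In a list of 16 tested heat shock response genes, 14 were higher in Input replicate 1, with a median of 0.50, and for the ER chaperone and unfolded protein response genes the median was 0.16. The HSP90 list was higher in Input replicate 1 in 13 of 13 genes (median 0.52), CCT in 8 of 8 (0.38), the mitochondrial list in 16 of 19 (0.36), J-domain genes in 28 of 39 (0.36) and the exchange factors in 9 of 10 (0.33). Libraries of 2 groups of 2 allow no exact permutation p below 0.333, so these differences between single libraries carry no test. In these bulk lysates fewer nuclei that express an mRNA and less of it per nucleus cannot be told apart. ORC1, the transfected gene, differed between replicates in the other direction, at 1108 scaled CPM in IP replicate 1 and 18551 in IP replicate 2, and at 333 and 5063 in Input. The part of this difference in the members' levels was not tested.

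**Figure D3:**
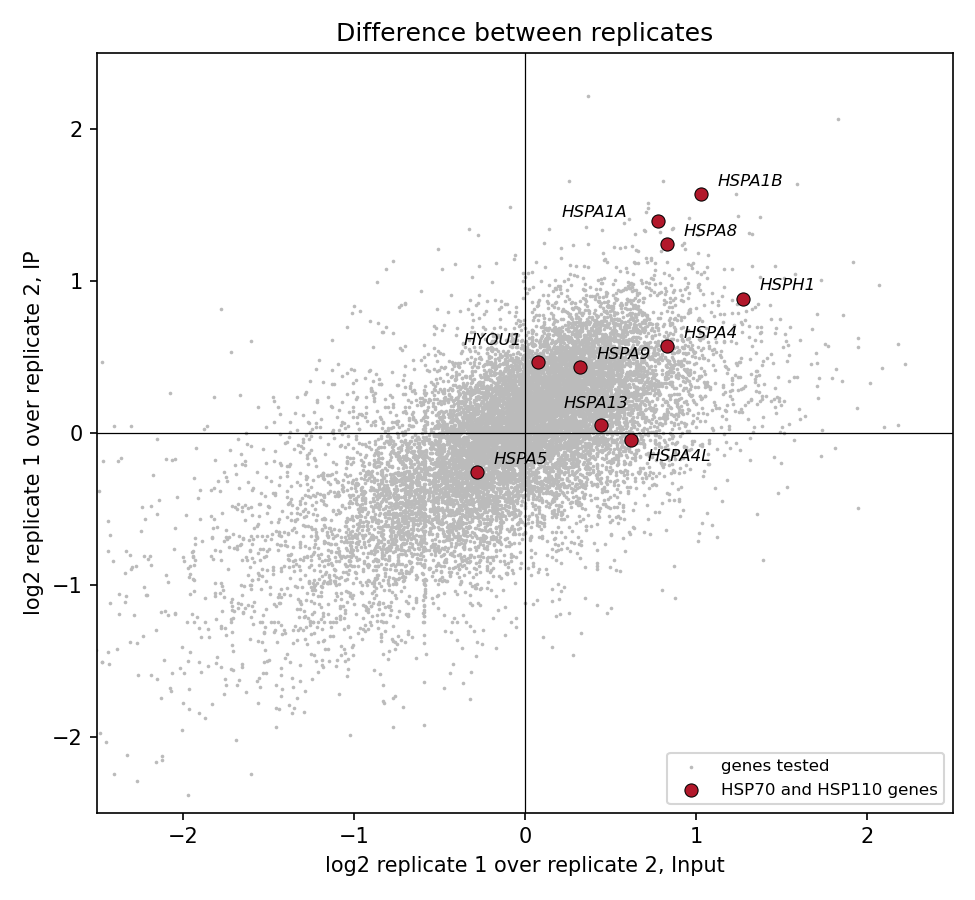
Log2 level in replicate 1 over replicate 2 in Input (horizontal) and in ORC1-FLAG IP (vertical) for the 14645 tested genes, with the members marked. Of the 10 members, 8 lie to the upper right, with HSPA1B, HSPA8, HSPA1A and HSPH1 farthest out, while HSPA5 lies to the lower left. Points outside the axes: 45 genes.

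Apart from their protein family, most members share a long coding sequence. The coding sequence was longer than the median of 1433 bases over 12534 tested protein-coding genes for 9 of 10 members, from 1923 bases in HSPA1A and HSPA1B to 2997 in HYOU1. Percentiles of coding length among those genes ran from 66.6 for HSPA1A and HSPA1B to 84.9 for HYOU1. HSPA13, at 1413 bases, was close to that median, at percentile 49.0, and was the member with the lowest ratio. Other HSP70 genes had log2 fold changes of 1.54 (HSPA2, 1917 bases), -0.06 (HSPA1L, 1923) and 0.04 (HSPA12A, 2025). HSPA12B, at 2058 bases, was at -0.50 and HSPA14, at 1527, at -0.21. A relation between coding length and ratio was not tested. Gene structure differed widely among the members. HSPA1A and HSPA1B have 1 exon, as have 222 of those genes, while HSPA8 has 9 exons, HSPA5 8, HSPA9 17, HSPH1 18, HSPA4 and HSPA4L 19 each and HYOU1 26. The GC content of the canonical transcript ran from 34.5% in HSPA13 to 59.8% in HSPA1A, around a median of 48.8% of the protein-coding genes. By Input level 9 of the 10 members were above percentile 75 of all tested genes, and HSPA1A was at percentile 26.5. HSPA1A, the least abundant as counted, and HSPA8, the most abundant, had log2 fold changes of 1.64 and 1.86. The level of HSPA1A rests on the uncertain division of reads with HSPA1B. A relation between ratio and abundance was not tested.

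**Figure D4:**
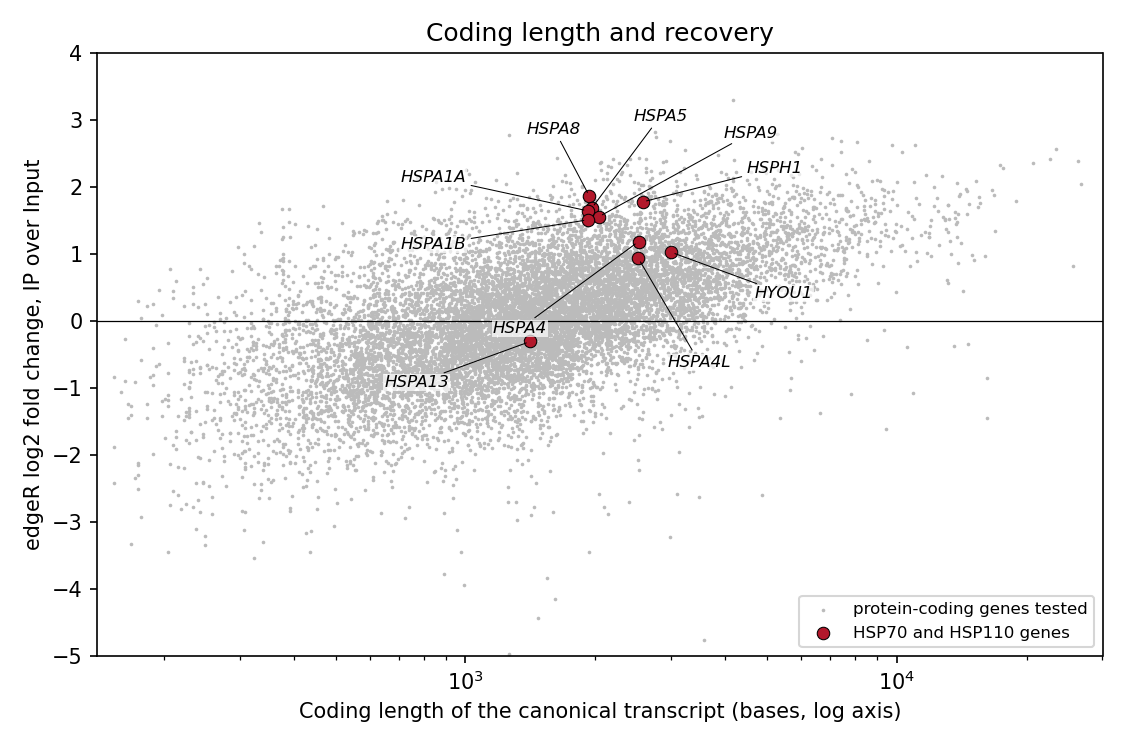
Coding length in bases (log axis) against the edgeR log2 fold change for 12534 tested protein-coding genes (grey) and the 10 members (coloured). All members but HSPA13 lie right of the median of 1433 bases and above 0, and 3 genes lie outside the axes.

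Paralogs and overlapping genes limit some of these values. Outside the HSPA1 pair, coding identity was 73.3% between HSPA1A and HSPA8, 61.6% between HSPA5 and HSPA8 and 26.9% between HSPA13 and HYOU1, the lowest. The share of 50-base windows that also occur in another transcript was 16.8% for HSPA8, 12.7% for HYOU1, 9.56% for HSPA5, 4.25% for HSPA9 and 0% for HSPA13. HSPA8 has 17 pseudogenes in the annotation, of which 13 had counts, and their summed counts came to at most 0.209% of those of HSPA8 in a library. Introns of HSPA8 hold the small nucleolar RNA gene SNORD14E, with 6 and 15 reads in IP against 4 and 4 in Input. The lncRNA gene ENSG00000285565, on the same strand as HSPA1B, overlaps 36.6% of its exonic bases. ENSG00000288061, an lncRNA gene on the opposite strand of HSPA8, overlaps 11.4% of its exonic bases. Neither lncRNA gene had a row of counts, so their reads in the shared bases may have been counted for the member. An lncRNA gene on the opposite strand of HSPA4L (ENSG00000261668) held 5 and 4 reads in IP against 12 and 27 in Input. The strand setting of the counting is not given in the sources used here, so reads of this gene and HSPA4L in the shared 4.69% of exonic bases may not be separated.

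Of 7 other listed HSP70 genes, 5 were tested and 1 was enriched, against 10.5% of all tested genes. Their median log2 fold change was -0.06, and a difference from the members was not tested. HSPA2, a testis-enriched HSP70 gene with a single exon, was measured at 11.7 and 11.0 scaled CPM in IP against 3.32 and 4.54 in Input, and was enriched with 1.54 ± 0.29 (edgeR adjusted p = 0.0164). HSPA14, which works at the ribosome, had a log2 fold change of -0.21, HSPA12A 0.04, HSPA1L -0.06 and HSPA12B -0.50, with edgeR adjusted p-values from 0.589 to 0.953. The stress-inducible HSPA6 had at most 3 counts in a library and HSPA7 at most 1, and neither was tested.

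Genes that work with HSP70 were described by lists that overlap one another, read against 10.5% enriched and 8.30% depleted among all tested genes. Of 10 other nucleotide exchange factors, 0 were enriched and 1 was depleted, the mitochondrial GRPEL2 (log2 fold change -1.24, edgeR adjusted p = 0.0190), with a list median of -0.14. BAG3 was just under the minimum of 1, at 0.995 (edgeR adjusted p = 0.0290). DESeq2 called 1 of the 10 enriched, against 11.0% of tested genes. Of 39 J-domain genes, 10 were enriched and 1 depleted, with a median of 0.23. The enriched ones with the largest values were DNAJC21 and DNAJC2, cofactors of ribosome assembly and of nascent chains, at 2.02 (edgeR adjusted p = 0.0257) and 2.01 (edgeR adjusted p = 0.0396). The depleted one was DNAJB9, an ER cofactor of HSPA5, at -1.27 (edgeR adjusted p = 0.0293).

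Of 13 genes of HSP90 and the adaptors between HSP70 and HSP90, 5 were enriched and 0 depleted, with a median of 0.83. STIP1, which hands clients from HSP70 to HSP90, was at 2.43 (edgeR adjusted p = 0.0117) and HSP90AA1, the inducible cytosolic HSP90, at 2.42 (edgeR adjusted p = 0.0179). Both also lead the 16 tested heat shock response genes, of which 5 were enriched. In that list HSPE1, the small mitochondrial co-chaperonin with 306 coding bases, was depleted at -3.13 ± 0.38 (edgeR adjusted p = 0.0105). The CCT chaperonin, a ring that folds actin and tubulin, had 3 of 8 subunits enriched and 0 depleted, led by CCT3 at 1.78 (edgeR adjusted p = 0.0197) and CCT5 at 1.64 (edgeR adjusted p = 0.0179).

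Among 27 genes of ER folding and the unfolded protein response, 4 were enriched and 3 depleted, with a median of 0.35. HSP90B1, the ER HSP90, was at 2.18 (edgeR adjusted p = 0.0132) and the disulfide isomerase PDIA3 at 1.37 (edgeR adjusted p = 0.0160). DERL2 and DERL1, small membrane proteins of ER-associated degradation, were depleted at -1.72 (edgeR adjusted p = 0.0107) and -1.69 (edgeR adjusted p = 0.0105). Of 19 tested genes of mitochondrial import and folding, 2 were enriched, HSPD1 at 1.33 (edgeR adjusted p = 0.0297) and LONP1 at 1.02 (edgeR adjusted p = 0.0259), and 2 depleted, HSPE1 and GRPEL2. The median of that list was 0.01. With library size as the only scaling the medians turned to -0.38 for J-domain genes, -0.27 for CCT, -0.26 for the ER list, -0.11 for heat shock response and -0.60 for the mitochondrial list, while that of the HSP90 list stayed above 0, at 0.22. With the replicate block 12 J-domain genes were enriched and 2 depleted, and 5 ER genes were enriched and 3 depleted. Of the mitochondrial genes 3 were enriched and 3 depleted, and the counts of the other lists did not change. In that fit 13.4% of all tested genes were enriched and 13.4% depleted. Over all these lists and the other HSP70 genes, each gene counted once, 25 were enriched and 5 depleted in the main fit. The shares of all tested genes in the main fit were 10.5% and 8.30%. The lists overlap, so their sizes do not add up to the number of different genes. Without IP replicate 1 the medians were 0.16 for J-domain genes, 0.10 for CCT and 0.23 for the ER list. In the same fit they were 0.02 for heat shock response, -0.01 for the mitochondrial list and 0.59 for the HSP90 list. Without Input replicate 2 the medians were 0.01, 0.09, 0.32, 0.05, -0.16 and 0.64, in the same order of lists.

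The protein-coding genes nearest to HSPA8 in level over the 4 libraries, by Euclidean distance of log2 scaled CPM, were HSP90AA1 at 1.24, HSP90AB1 at 1.40 and EEF1A1 at 1.54. For HSPA13 they were PTRH2 at 0.113, PIP4K2A at 0.124 and PAWR at 0.134. HSPA8 lay farther from its closest genes than HSPA13 did, among 12534 genes compared. By Input level HSPA8 stood at percentile 99.9 of the tested genes and HSPA13 at 78.8. The number of genes near each level was not taken into account.

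**Figure D5:**
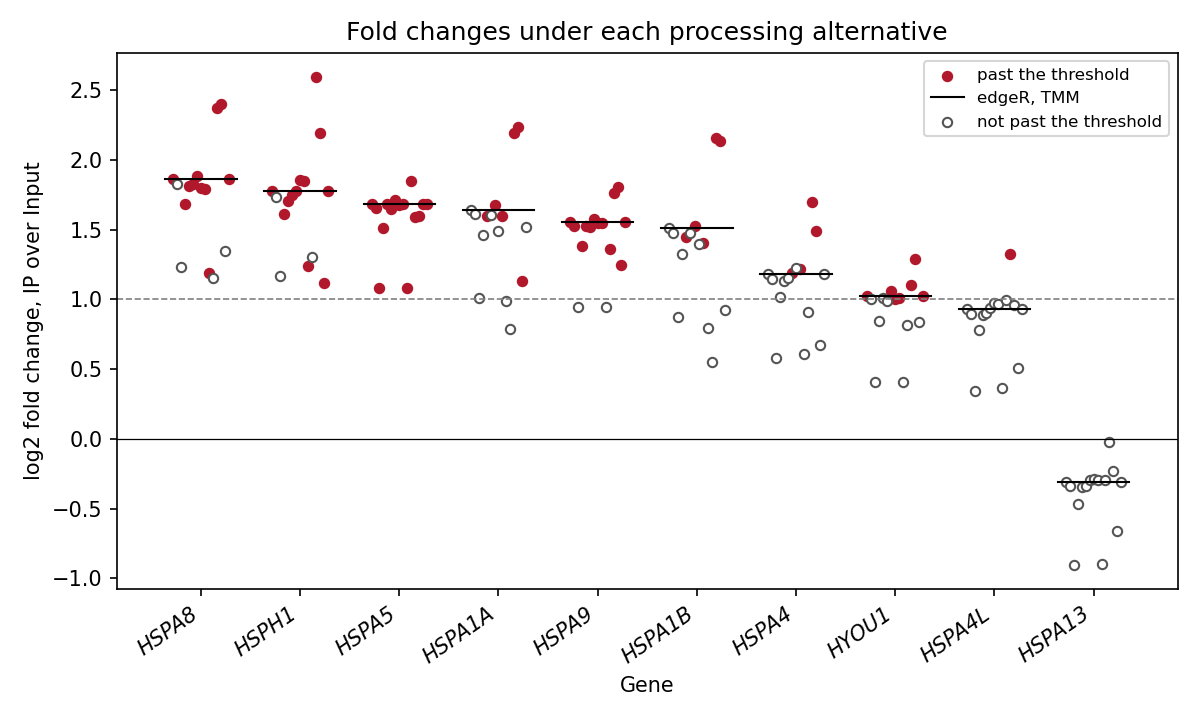
Log2 fold change of each member as reported (horizontal line and the first point) and under the 14 alternative settings (1 point each, filled where the member was called). With the HSPA1 pair summed, the sum is plotted at HSPA1A and HSPA1B has no point. HSPA5 was called in all of them, HSPA9 in 12 and HSPH1 in 11, and HSPA13 in none and below 0 throughout.

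Total counts were between 9213877 and 27483148 per library, with both IP libraries deeper than both Inputs. Member counts ran from 39 reads, for HSPA1A in Input replicate 2, to 381588, for HSPA8 in IP replicate 1, and the SE did not follow depth, since it was 0.52 for both. Of 7 epithelial markers, which the carcinoma line should express, 6 passed the count filter and their summed level was 2324 to 2536 scaled CPM in the Inputs and 4136 to 4519 in the IP libraries. Fibroblast markers summed to 8.82 and 11.3 in the Inputs and 22.6 and 27.7 in the IP libraries, mostly from COL1A1, with 2 of 5 at 0 in every library. Leukocyte markers summed to 0.115 to 0.740, with CD3E and LYZ at 0 throughout. The part of these marker levels in the members' ratios was not tested.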

How the data were processed

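RNA of ORC1-FLAG IP and of Input was sequenced in 4 libraries (2 per group) with a ribosomal-depleted total RNA kit. The deposited table holds whole-number counts of reads for each gene, which the authors had not normalized. Per the labels and the study, Trimmomatic, STAR (on hg19) and featureCounts were run in that order, the last on an Ensembl annotation and after reads on GL contigs were removed. The annotation release, strand setting, treatment of multiple alignments and read length are not given in the sources used here. Symbols, coordinates, transcripts and coding sequences came from GENCODE v44 on GRCh38, joined by Ensembl identifier, and 11496 of 63677 genes had none there.

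Counts were fitted with edgeR 4.0.16 in R 4.3.3 (TMM scaling, filterByExpr, robust quasi-likelihood test, group as the only term) on all 4 libraries, with Benjamini-Hochberg adjustment over all 14645 tested genes. TMM factors were 0.758 and 0.868 for IP and 1.19 and 1.28 for Input. Each SE is the log2 fold change over the root of its F statistic. Replicate ratios used scaled CPM plus 0.5. Equal replicate numbers mark 1 RIP replicate in the labels, and deviations of equal numbers from their group means correlated across genes (Pearson r = 0.645, descriptive), so a fit with a replicate block was also made. Alternatives were other scalings, filters, DESeq2 1.42.0 (the study's tool), limma voom 3.58.1, summed HSPA1A and HSPA1B, and leaving out each library. The script was tested on simulated data. Sequencing reads carry no molecular identifiers, so depth covers counting error only. All 10 members, the other HSP70 genes, at most 2 enriched and 2 depleted genes per list with the largest fold change, overlapping genes, nearest genes and ORC1 are named. BAG3 is named for its value near the minimum fold. The members and lists were chosen with earlier results of these data known.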

Additional observations from a re-analysis of the deposited data

How the results depend on the processing

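No member changed sign under any of the 14 alternatives, and HSPA13 was called in none of them. The count of enriched members, 5 as reported, was 2 with RLE size factors, 1 with library size only, 8 with DESeq2 and 8 with the replicate block, and 2 to 9 when each library was left out in turn. Enriched genes over all tested numbered 1428 with RLE and 1291 to 1936 in the fits with a library left out, against 1542 as reported. The block and library size only together, an alternative chosen after seeing the data, gave 3. Over all genes, library size only gave 380 enriched and 3257 depleted, the replicate block 1957 depleted, and both together 505 enriched and 4599 depleted. Of the genes of the pathway lists, library size only gave 8 enriched and 22 depleted, against 2.59% and 22.2% of all tested genes. With the block as well there were 9 and 23, against 3.45% and 31.4%. Upper-quartile scaling gave 8 depleted and no count filter 9, and leaving out each library gave 14 to 35 enriched and 4 to 17 depleted. The median log2 ratios of the members were 0.97 and 0.77 with library size only. On the longest transcript of each gene 2 members held GAAGAAGAA in place of 1. With library size only the median log2 fold change shifted by -0.60. In that fit HSPA9 and HYOU1 fell below the minimum of 1, at 0.94 and 0.41. HSPA8 and HSPH1 stayed above it, at 1.24 and 1.17, with edgeR adjusted p = 0.0742 and 0.0799. The cause of the changed calls was not tested for any setting. Leaving out a library leaves 1 in that arm, which is assumed to vary like the other group. Those fits had no block, so the replicate partner of the library left out was unmatched. The blocked values that change a call stand beside the members and the pathway lists, and 2 libraries per group limit every call.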

Other observations

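The small nucleolar RNA genes SNORD63B and SNORD63 lie within exonic sequence of some annotated HSPA9 transcript, on the same strand, with 70 and 68 shared bases, and have rows of their own in the table. SNORD63B held 3 and 13 reads in IP against 1 and 4 in Input, and SNORD63 held 3 and 8 in IP against 1 and 8 in Input. The host held 51220 and 32009 reads in IP against 14152 and 7561 in Input. In HSPA8, SNORD14D and SNORD14C were listed at 0 in every library. Among pseudogenes of other members, HSPA5P1 held 8 and 13 reads in IP against 3 and 4 in Input, and HSPA9P1 held 14 and 5 in IP against 2 and 0 in Input.

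A further pair of GAAGAA windows was nearly shared by 2 HSP110 mRNAs, HSPA4 and HSPH1, with 2 of 18 bases different. Here too GAAGAA matches by selection, and the HSPH1 window was the one with the fewest differences. They are given on GRCh38 in the direction of the mRNA, with GAAGAA in capitals.
HSPA4, coding, chr5:133101792-133101809, plus strand: gaatctGAAGAAcgacca
HSPH1, coding, chr13:31138850-31138867, minus strand: gaagctGAAGAAcggcca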
